A study of Triticum aestivum with 4 samples.

Results

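The Affymetrix wheat array carries a group of probe sets whose names share the stem TaAffx.128414, the number of the sequence cluster from which they were designed. Every probe set with this stem was taken, whatever its suffix, which gave 59 of the 61115 probe sets left without controls. The platform annotation pairs 24 of the 59 with 1 wheat gene, whose RefSeq synonym is rbcl, the large subunit of Rubisco, and gives no gene for the other 35. RNA was measured on 4 arrays, 2 of the spring wheat genotype CB037 (WT) and 2 of UD-2, which is progeny of 1 transgenic event of CB037 carrying maize Dof1 (ZmDof1) under UBI4, a constitutive promoter from sugarcane. For each array, flag leaf RNA of 3 plants at anthesis was pooled, and the plants were grown in a greenhouse with 10 h of light and 14 h of dark at 29°C by day and 24°C at night. Since UD-2 is a single event, a difference between the lines cannot be told apart from an effect of that event. The p-values measure the spread between pools of plants of a line.

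Rubisco fixes CO2 in the Calvin cycle and is among the most abundant proteins of a green leaf. In land plants its large subunit, which holds the active site, is encoded by rbcL on the chloroplast genome, and its small subunit by a nuclear gene family. The large subunit message is transcribed by the polymerase of the chloroplast itself, translated there and assembled with imported small subunits by chaperones.

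The annotation did not settle whether the cluster holds chloroplast transcripts. The RefSeq table used here places the rbcl gene on a nuclear chromosome and holds 0 rows of a plastid genome, so the chloroplast origin of these sequences was not checked. The members are therefore described as cluster TaAffx.128414, with 24 annotated to rbcl.

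Of the 64 reporter control probe sets, 1 passed the threshold in a limma fit that kept controls. This was RPTR-Ta-U57609-2_s_at, at log2 signals of 4.62 and 5.47 in WT and 11.22 and 10.70 in UD-2. It is shown because it differed most, and since its target sequence was not used here it is no independent check of the labels. The leaf origin of the RNA was checked on PsbO and PsbP, proteins of the oxygen-evolving complex of photosystem II. Their 3 probe sets lay between 11.11 and 13.42 on the 4 arrays. On each of the 3, both UD-2 arrays lay below both WT arrays, where 25.9% of all probe sets did. The differences were -0.28, -0.13 and -0.47 on the log2 scale, and 0 passed the threshold. Of 17 probe sets for grain storage proteins, 13 were at the background level on every array and 3 were above it on all 4. The brightest of the 3 was Ta.27777.1.S1_at, an avenin-like protein, at 10.27, 10.36, 10.79 and 10.66 on WT replicates 1 and 2 and UD-2 replicates 1 and 2, the order in which values on the arrays are given throughout. Its part in the results on the cluster was not tested.

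Members of the cluster spanned almost the whole scale of the array. Their mean log2 signals ran from 2.02 to 14.56, with a median of 3.58 against 4.57 over all probe sets. Of the 59, 33 had a mean under 4, 8 lay from 4 to 6, 7 from 6 to 8, 5 from 8 to 10, 2 from 10 to 12 and 4 from 12 to 15. Probe sets differ in how strongly their probes bind, so this range compares probe sets and not amounts of transcript.

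The brightest member, TaAffx.128414.1.A1_x_at, is annotated to rbcl and gave 14.54, 14.57, 14.56 and 14.56. It was the brightest of all probe sets on 3 of the 4 arrays. On WT replicate 1 it came after Ta.24976.1.S1_x_at, which is annotated to rbcl too but lies outside the cluster and gave 14.54, 14.53, 14.52 and 14.52. The 2 lines overlapped on the brightest member, with a difference of 0.01 ± 0.11 (SE) on the log2 scale. This member and Ta.24976.1.S1_x_at held the first and second place at the top of the scale, at 14.52 to 14.57 on every array. Whether a signal there could still rise with the transcript was not tested, so that a difference between the lines could have been missed.

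Of the next members by brightness, none is annotated. TaAffx.128414.219.S1_x_at gave 13.59, 13.43, 13.49 and 13.56. TaAffx.128414.205.S1_x_at gave 12.38, 12.10, 12.11 and 12.25, and TaAffx.128414.215.S1_s_at gave 12.13, 12.01, 12.08 and 12.17. On these 3 members too, the arrays of the lines overlapped. Further down the scale, TaAffx.128414.60.S1_x_at gave 11.44, 11.27, 10.92 and 11.44, and TaAffx.128414.176.S1_x_at gave 11.16, 11.00, 10.94 and 11.13, both lowest on UD-2 replicate 1. The dimmest member was TaAffx.128414.83.S1_at, at 1.95, 2.12, 1.87 and 2.12.

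**Figure D1:**
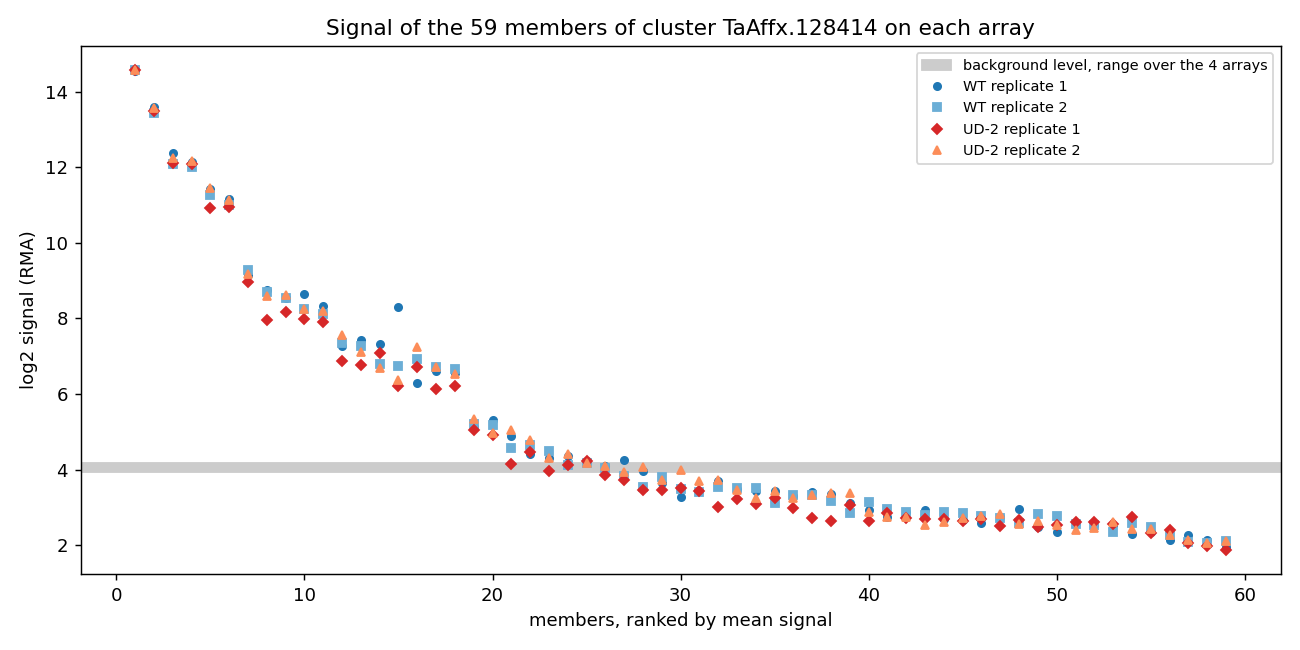
Log2 signal of the 59 members of cluster TaAffx.128414 on each of the 4 arrays, with members ranked along the x axis by their mean and the range of the background level over the arrays as a grey band. Means fall from 14.56 to 2.02, and 30 members lie under the level of the array itself on all 4 arrays.

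The background level was set on each array at the 95th percentile of the 42 control probe sets for Bacillus genes, which detect no wheat gene. In WT it came to 4.17 and 4.15 and in UD-2 to 3.93 and 3.99, and the median signal of the Bacillus probe sets was 2.69. Above this level on all 4 arrays were 24 of the 59 members, or 40.7%, against 54.0% of all probe sets. On every array, 30 members (50.8%) were at or below it, against 39.0% of all probe sets, and the other 5 crossed it on some arrays. With the median of the Bacillus probe sets as the level in place of the 95th percentile, 40 members were above it on all 4 arrays.

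The members closest to the level show how narrow the step was. TaAffx.128414.4.S1_at gave 4.23, 4.17, 4.22 and 4.17 and passed on all 4 arrays. TaAffx.128414.91.S1_at, at 4.37, 4.13, 4.13 and 4.41, failed on WT replicate 2 alone. TaAffx.128414.122.S1_at passed at 4.30, 4.49, 3.98 and 4.30, and TaAffx.128414.13.S1_at, at 4.09, 4.05, 3.85 and 4.09, passed on UD-2 replicate 2 alone. TaAffx.128414.42.S1_at, at 4.27, 3.82, 3.73 and 3.95, passed on WT replicate 1 alone. The same held on UD-2 replicate 2 for TaAffx.128414.46.S1_at, at 3.96, 3.54, 3.47 and 4.06.

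Annotation to rbcl did not separate bright members from dim ones. Of the 24 annotated members, 9 were above background on all 4 arrays, and of the 35 others 15 were. The median of the mean signals was 3.02 over the annotated members and 3.76 over the others. Outside the cluster, 4 further probe sets are annotated to rbcl and span a like range. Besides Ta.24976.1.S1_x_at, TaAffx.128896.17.S1_s_at gave 7.62, 7.34, 7.17 and 7.61, Ta.3807.1.A1_at gave 4.47, 4.27, 4.30 and 4.21, and Ta.14567.2.S1_at was at background with 2.74, 2.27, 2.45 and 2.13. A reading of rbcl from 1 probe set of this array therefore depended on which of the 28 was read.

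The letters S1 and A1 in a name mark the sense or antisense orientation of the sequence that the probe set was designed from. Of the 59 members, 55 are S1 and 4 are A1. Among the S1 members 22 were above background on all 4 arrays (40.0%) and 28 on none. Over the whole array 52.9% of S probe sets and 59.3% of A probe sets were above it on all 4. The 4 A1 members fell at both ends. TaAffx.128414.1.A1_x_at was the brightest member and TaAffx.128414.24.A1_s_at gave 8.31, 6.75, 6.21 and 6.37, while TaAffx.128414.229.A1_x_at, at 2.97, 2.58, 2.66 and 2.57, and TaAffx.128414.190.A1_at, at 2.75, 2.96, 2.86 and 2.74, were at background on every array. With 4 A1 members, no difference in brightness between the orientations could be read. TaAffx.128414.190.A1_at was named after its values were seen, as the last of the 4.

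The suffix of a name describes the probes. In an _at set all probes are unique to the target, in an _s_at set they are shared by several transcripts, and in an _x_at set some match other sequences. The cluster has 45 members in _at, 2 in _s_at and 12 in _x_at, of which 16, 2 and 6 were above background on all 4 arrays. The 6 brightest members all end in _x_at or _s_at, and the brightest _at member was TaAffx.128414.18.S1_at, at 9.16, 9.28, 8.97 and 9.18.

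In 4 cases the same sequence number carries both an _at and an _x_at set. For number 15, the _at set gave 2.58, 2.77, 2.69 and 2.77 and the _x_at set 3.29, 3.50, 3.53 and 4.01, higher by 0.71 to 1.23 on each array. For number 147 the _x_at set was higher by 0.21 to 0.49. For numbers 54 and 201 it was lower on every array, by a mean difference of -0.08 and -0.22. Of these 8 probe sets, only the _x_at set of number 15 was above background, and on 1 array. These pairs were chosen after their values were seen.

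The annotated members also differed by the sequence records behind them. The annotation names each source record by a GenBank accession, whose first letters are BE for 13 members, CA for 10 and AY for 1. BE and CA mark expressed sequence tags, and AY marks a directly submitted sequence. Of the 13 BE members, 2 were above background on all 4 arrays and 9 on none, with a median of the mean signals of 2.81. Of the 10 CA members, 6 were above on all 4 and 4 on none, with a median of 6.67. The AY member was the brightest of the cluster. The contrast between BE and CA was noticed in these values and was not tested.

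A like unevenness ran along the sequence numbers. The numbers 37 to 56 hold 20 of the members, 1 of which was above background on all 4 arrays and 17 on none. This 1 was TaAffx.128414.47.S1_at, at 4.42, 4.65, 4.47 and 4.78. Of the 29 members with higher numbers 17 were above on all 4 arrays, as were 6 of the 10 with lower numbers. The limits of this range were drawn after the values were seen, and of its 20 members 10 carry the letters BE and the other 10 have no annotation.

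**Figure D2:**
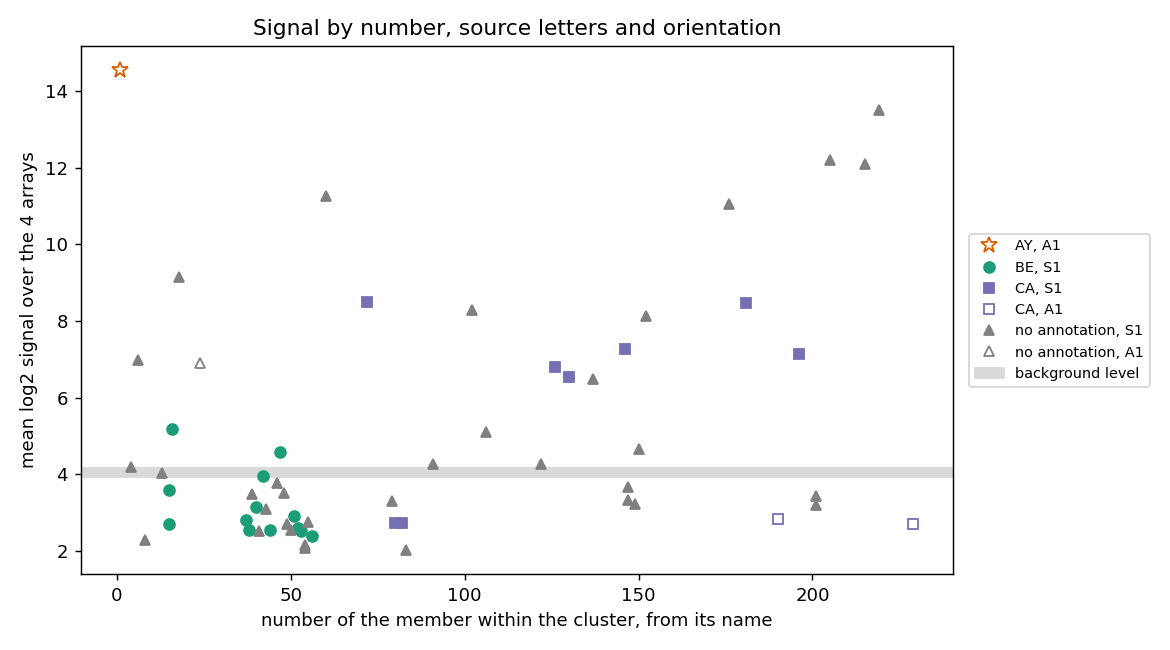
Mean log2 signal over the 4 arrays against the sequence number in each member's name, with the first letters of the source accession as colour and symbol, S1 filled and A1 open, and the background level as a grey band. The 20 members numbered 37 to 56 lie between 2.07 and 4.58, while the members above 12 carry the numbers 1, 205, 215 and 219.

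Of the 6 clusters of the array with 30 or more probe sets, TaAffx.128414 had the brightest member, its maximum of 14.56 standing beside 12.08 in TaAffx.128418, the next highest. Its 40.7% of members above background lay between the 4.55% of TaAffx.128541 and the 82.1% of Ta.10329.

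UD-2 and WT were then compared on each member with limma's moderated test, to find whether transcripts of the cluster differed between the transgenic line and its parent. Of the 59 members, 0 passed the adjusted p threshold of 0.05, where 0.712% of all probe sets did, 0.43% with higher and 0.281% with lower signal in UD-2. The adjusted p-values of the members ran from 0.196 to 0.708. Benjamini-Hochberg adjustment gave 0 members too. At an unadjusted p under 0.05 there were 4 members, all lower in UD-2, which is 6.78% against 17.1% of all probe sets. Of 59 probe sets, a count of 0 is near what the background share gives, so it says little on its own.

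The differences themselves were small. The median UD-2 minus WT over the members was -0.09 on the log2 scale, with 42 lower and 17 higher in UD-2, and -0.02 over all probe sets, of which 54.0% were lower. Over the 24 members above background the median was -0.15, with 18 lower, against -0.0036 over all probe sets above background, of which 50.5% were lower. The median was -0.08 over the 24 members annotated to rbcl and -0.10 over the others. Members were designed from the same sequence cluster and may share targets, which was not checked. These counts are therefore not taken as counts of independent genes.

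Both UD-2 arrays lay below both WT arrays on 11 members (18.6%), where 25.9% of all probe sets did. Both lay above on 3 members (5.08%), where 22.2% of all probe sets did. Of the 24 members above background, 5 had UD-2 below WT without overlap and 0 had it above, against 27.9% and 29.0% of all probe sets above background. Complete separation of the lines was thus no more frequent among members than on the array.

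The largest difference was that of TaAffx.128414.24.A1_s_at, the A1 member at 8.31 and 6.75 in WT and 6.21 and 6.37 in UD-2. The lines did not overlap and differed by -1.25 ± 0.48 (SE), with an adjusted p of 0.196 from limma. The WT arrays were 1.56 apart, the widest gap within a line in the cluster, and without WT replicate 1 the difference was -0.47.

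The other members with an unadjusted p under 0.05 were dimmer or changed less. TaAffx.128414.196.S1_at, annotated to rbcl, gave 7.43 and 7.27 in WT and 6.77 and 7.12 in UD-2, a difference of -0.40 ± 0.16 (SE) with an adjusted p of 0.198 from limma. TaAffx.128414.106.S1_x_at gave 5.31 and 5.17 against 4.92 and 4.98, a difference of -0.29 ± 0.11 (SE) with an adjusted p of 0.204 from limma. TaAffx.128414.147.S1_at, named after its values were seen, gave 3.44 and 3.51 in WT and 3.09 and 3.25 in UD-2. The difference was -0.31 ± 0.12 (SE), with an adjusted p of 0.196 from limma, the smallest of the cluster by a narrow margin. This member was at background on every array.

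TaAffx.128414.72.S1_at, annotated to rbcl, gave 8.76 and 8.70 in WT and 7.96 and 8.60 in UD-2. Its lines did not overlap, but most of the difference of -0.45 ± 0.22 (SE) lay on UD-2 replicate 1, and the adjusted p from limma was 0.254. TaAffx.128414.102.S1_at, at 8.65, 8.25, 7.98 and 8.25, was lower by a mean of -0.33 with overlapping lines. In the other direction, TaAffx.128414.126.S1_at, annotated to rbcl, had the largest value, 0.38 ± 0.26 (SE), at 6.29 and 6.92 in WT and 6.72 and 7.23 in UD-2. Here too the lines overlapped, and the adjusted p from limma was 0.365. TaAffx.128414.16.S1_at, annotated to rbcl, gave 5.13, 5.20, 5.04 and 5.34, with both UD-2 arrays outside the range of WT on opposite sides.

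**Figure D3:**
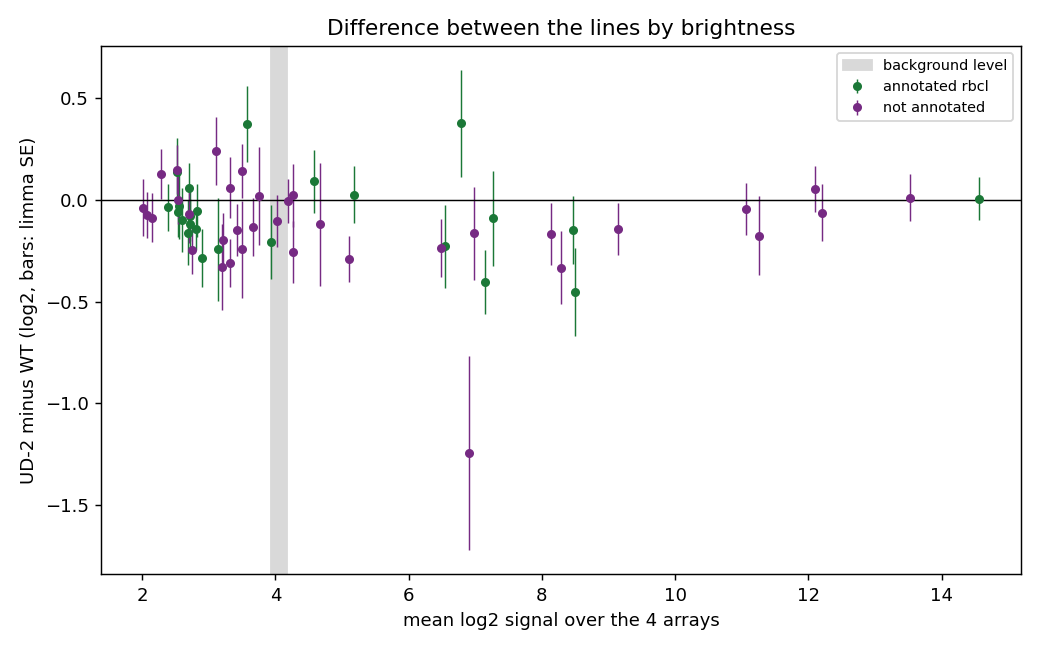
UD-2 minus WT on the log2 scale against the mean log2 signal for the 59 members, with limma's standard error as bars, colour for annotation to rbcl and the background level as a grey band. The 4 members above 12 lie between -0.06 and 0.05, and the lowest point is TaAffx.128414.24.A1_s_at at -1.25.

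The range of a member over the 4 arrays was widest in the middle of the scale. Its median was 0.30 over the 30 members at background, 0.33 over the 8 members from 4 to 6 and 0.66 over the 7 from 6 to 8. Above that it was 0.43 over the 5 members from 8 to 10, 0.37 over the 2 from 10 to 12 and 0.16 over the 4 from 12 to 15. Over all probe sets, the median range in the same steps from 4 upwards was 0.38, 0.41, 0.40, 0.39 and 0.27, so that the members varied less than the array from 4 to 6, more from 6 to 10, and less above 10. With 2 to 8 members in a step, these medians are descriptions.

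On most members the same array was lowest. UD-2 replicate 1 gave the lowest of the 4 signals on 35 of the 59 members, where it did so on 30.5% of all probe sets. Of the 24 members above background it was lowest on 16 (66.7%, against 29.3% of all probe sets above background) and highest on 0. From 4 to 6 on the log2 scale it was lowest on 5 of 8 members, against 31.1% of all probe sets there. From 6 to 12 it was lowest on 12 of 14 members, against 27.4% of all probe sets in that range. Above 12 it was lowest on 0 of 4, against 37.3% of all probe sets from 12 to 15. The range from 6 to 12 was not planned before the values were seen. TaAffx.128414.181.S1_at, annotated to rbcl, gave 8.54, 8.54, 8.18 and 8.61, and TaAffx.128414.150.S1_at gave 4.89, 4.57, 4.16 and 5.06. The second has the widest gap between the UD-2 arrays in the cluster, 0.90.

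The median deviation of the 24 members from their own means was 0.07 on WT replicate 1, 0.02 on WT replicate 2, -0.21 on UD-2 replicate 1 and 0.06 on UD-2 replicate 2. Over all probe sets above background it lay between -0.01 and 0.01 on each array. Without UD-2 replicate 1, the median difference over the 24 members was 0.01 in place of -0.15, with 11 lower in place of 18. Over the 59 members it was -0.01 in place of -0.09, with 30 lower in place of 42. The lower median of the cluster in UD-2 thus rested on 1 of the 2 UD-2 arrays. Among the 11 members above background still lower without it were TaAffx.128414.24.A1_s_at, at -1.17, and TaAffx.128414.196.S1_at, at -0.23. The counts of lower members without this array were chosen after seeing the data.

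The control probe set for 18S ribosomal RNA, AFFX-Ta_18SrRNA_at, was also lowest on UD-2 replicate 1, at 12.03 and 12.06 in WT and 11.18 and 11.74 in UD-2. Unlike the median of the 24 members, it was lower on both UD-2 arrays than on both WT arrays. This control was not among the planned comparisons. Its signal on UD-2 replicate 1 was 0.57 under its own mean. The other large clusters differed in how often UD-2 replicate 1 was lowest, and Ta.7378 came near the 66.7% of TaAffx.128414. UD-2 replicate 1 was the lowest array on 20 of the 31 members of Ta.7378 above background (64.5%), on 15 of the 32 of Ta.10329 (46.9%), on 24 of the 64 of TaAffx.128418 (37.5%) and on 8 of the 22 of TaAffx.143995 (36.4%), against the 29.3% of all probe sets above background. TaAffx.128541 had 2 members above background, 1 of them lowest on that array. The part that RNA composition or this array has in the results on the cluster was not tested.

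**Figure D4:**
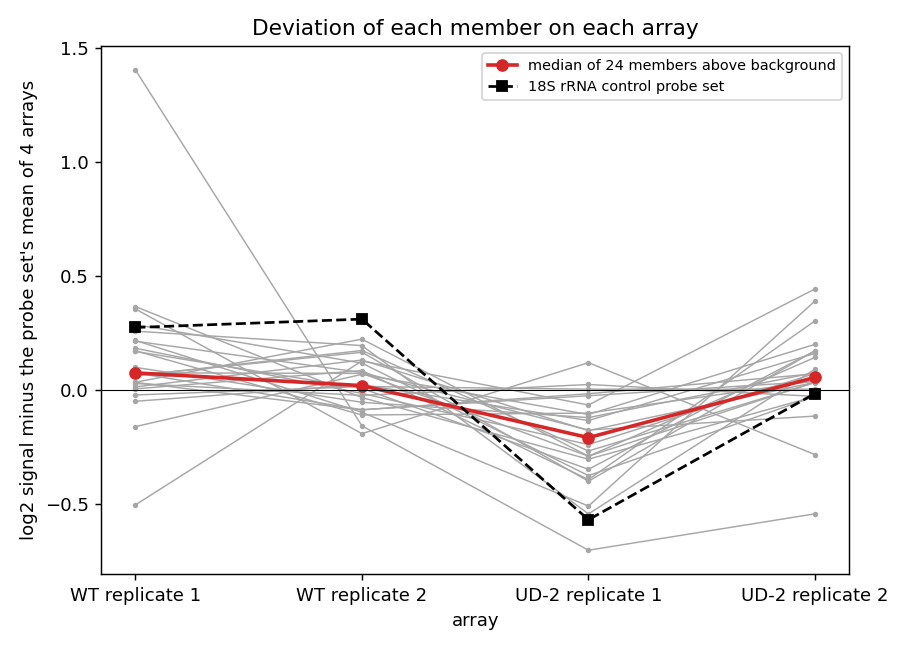
Log2 signal of each of the 24 members above background (grey lines) on each array, less its mean over the 4 arrays, with their median in red and the 18S ribosomal RNA control probe set in black. The median is at -0.21 on UD-2 replicate 1 and between 0.02 and 0.07 on the other arrays.

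Other genes of carbon fixation were looked up by name. Of the Calvin cycle, 4 probe sets were found, 3 of them above background, and 0 passed the threshold in either direction. Phosphoribulokinase, which makes the CO2 acceptor of Rubisco, gave 13.38, 13.39, 13.31 and 13.39 on PRK probe set Ta.23158.1.S1_at. Phosphoglycerate kinase, which phosphorylates the product of Rubisco, gave 12.95, 12.88, 12.35 and 12.74 on Pgk-1 probe set Ta.2307.1.S1_at. Both were lowest on UD-2 replicate 1. Fructose-1,6-bisphosphatase, which acts in the regeneration of the acceptor, came nearest to the threshold, at 10.74, 10.60, 9.99 and 10.18 on FBP probe set Ta.439.1.S1_at. Its lines did not overlap and differed by -0.58 ± 0.13 (SE), with an adjusted p of 0.0978 from limma. The median difference over the 4 probe sets was -0.27. For Rubisco beyond the cluster, the lists found the 4 probe sets annotated to rbcl above, of which 0 passed, with a median of -0.10. No probe set was found by name for the small subunit, for Rubisco activase or for other genes of the chloroplast genome, and these were not analysed here.

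The 4 signals of the brightest member lay within 0.04 of each other, at the top of the scale, so a search for like profiles finds probe sets with little spread. Among 32993 probe sets outside the cluster that were above background on all 4 arrays, the nearest to it after centring were Ta.4516.2.S1_at, Ta.26220.1.A1_at and Ta.12021.1.A1_at, with root mean square differences of 0.0025, 0.0031 and 0.0036 on the log2 scale over 4 arrays. Their signals lay between 5.01 and 8.98, and the likeness says nothing about how the transcript behaved.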

How the data were processed

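The authors copied flag leaf RNA into cDNA, made biotin-labelled antisense RNA (cRNA) from it and hybridized the cRNA to 4 wheat arrays. They corrected the background and normalized the arrays together by robust multiarray average (RMA), and deposited 1 log2 value per probe set and array. The submitters' processing notes name R 3.1.1, RMA and limma. Probe-level intensities were not used here. With 2 arrays per line, precision is limited. The 175 control probe sets were left out of the test. UD-2 was compared with WT in limma 3.58.1 (lmFit and eBayes, R 4.3.3) over 61115 probe sets with no covariates, and p-values were adjusted over all of them by the method of Storey and Tibshirani (lambda from 0.05 to 0.95 in steps of 0.05, threshold 0.05, share unchanged 0.708). The script was tested on simulated data. Tables were made with Python 3.11.15 and pandas 2.3.3. Gene names came from the platform annotation, which gives 1 gene for 1273 probe sets, and the wheat RefSeq table.

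The members and lists were chosen with earlier results of these data known. Members were named by a rule on brightness, size of difference, nearness to background, orientation and spread. Other adjustments, eBayes settings, filters, scalings, background levels and each array left out were tried.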

Additional observations from a re-analysis of the deposited data

How the results depend on the processing

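The count of members passing the limma threshold was 0 under each of the 14 other settings run, while over all probe sets it ranged from 0 with any 1 array left out to 1808 without dim probe sets. The replicate numbers are shared by the lines but mark no common origin in the labels (r = -0.09 between the within-line differences), and with the replicate block 0 members and 27 probe sets passed. Leaving out arrays one at a time moved the median difference over the cluster from -0.15 to -0.01 and over the members above background from -0.32 to 0.01, the last of each without UD-2 replicate 1. The count above background was 40 (37 of them S1) at the Bacillus median and 9 among the members annotated to rbcl. Members with UD-2 wholly below WT numbered 7 after array median centring. Those wholly above numbered 6 after quantile normalization and 7 after median centring. The shares over all probe sets under these scalings were not computed, so whether the members or the array moved was not tested. Among the members annotated to rbcl, 4 were wholly below (16.7%) and 1 wholly above (4.17%), against 25.9% and 22.2% of all probe sets. Chosen after seeing the data, leaving out UD-2 replicate 1 gave 11 members above background lower in UD-2. It gave 18 members below and 20 above, with 1 array against 2. Separation of 1 array from 2 is easier to reach than of 2 from 2. The share over all probe sets was not computed here, so these 2 counts were not compared with the main ones.

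Of 25 named members, 8 kept their sign under all 3 scalings and with any 1 array left out, and 0 passed the threshold in these settings. Cyclic loess turned TaAffx.128414.1.A1_x_at to -0.016, TaAffx.128414.219.S1_x_at to -0.028 and TaAffx.128414.215.S1_s_at to -0.0030. Median centring turned TaAffx.128414.176.S1_x_at to 0.0093 and TaAffx.128414.83.S1_at to 0.016. TaAffx.128414.4.S1_at became 0.052 under quantile normalization, 0.0501 after median centring and 0.055 under cyclic loess. With 1 array left out, the difference lay from -0.012 to 0.025 for TaAffx.128414.1.A1_x_at, from -0.068 to 0.093 for TaAffx.128414.219.S1_x_at, from -0.20 to 0.079 for TaAffx.128414.205.S1_x_at, from -0.0059 to 0.11 for TaAffx.128414.215.S1_s_at and from -0.44 to 0.084 for TaAffx.128414.60.S1_x_at. It lay from -0.14 to 0.054 for TaAffx.128414.176.S1_x_at, from -0.36 to 0.069 for TaAffx.128414.181.S1_at, from -0.12 to 0.17 for TaAffx.128414.16.S1_at, from -0.57 to 0.33 for TaAffx.128414.150.S1_at, from -0.062 to 0.25 for TaAffx.128414.47.S1_at and from -0.12 to 0.16 for TaAffx.128414.91.S1_at. It lay from -0.030 to 0.022 for TaAffx.128414.4.S1_at, from -0.22 to 0.019 for TaAffx.128414.13.S1_at, from -0.43 to 0.015 for TaAffx.128414.42.S1_at, from -0.28 to 0.31 for TaAffx.128414.46.S1_at, from -0.36 to 0.035 for TaAffx.128414.229.A1_x_at and from -0.16 to 0.088 for TaAffx.128414.83.S1_at. The cause of these changes was not tested. On every array, 30 of the 59 members lay at or below the background level chosen here, so their differences say little about transcript.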
